A study of Mus musculus with 15 samples.

Results

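H3K9me3 profiles made from 1000 mouse embryonic stem cells were set against profiles made from many cells, to find the genomic places where the mark stood lower or higher at low input. The comparison covers 93569 of the 98085 bins of 2 kb in the deposited table, namely those above 0 in at least 1 of the 6 H3K9me3 libraries. The group of 1000 cells holds 3 libraries (a, b and c). The group of many cells holds 1 library each of 10000, 100000 and 1000000 cells, so its spread includes any effect of cell number among them.

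H3K9me3 is trimethylation of lysine 9 of histone H3, a mark of heterochromatin. In embryonic stem cells it is placed by SETDB1, which TRIM28 and KRAB zinc finger proteins bring to endogenous retroviruses, and by the SUV39H enzymes at repeats around centromeres. Start sites and bodies of transcribed genes usually carry little of it, so that reads there are near the background of an immunoprecipitation.

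The cells of both groups were male wildtype TT2 cells, an embryonic stem cell line from the inner cell mass of a C57BL/6 x CBA blastocyst. They were sorted straight into nuclear isolation buffer, and uncrosslinked chromatin (native ChIP) was pulled down with the same H3K9me3 antibody and sequenced from both ends. All libraries are of this 1 line, and whether any of them stem from different cultures is not labelled, so each p-value reflects library-to-library spread alone, which may be technical. In the RNA library of 1000 cells from the same series, 19 of 19 pluripotency genes found had at least 1 RPKM (median 44.2) and so did 4 of 20 fibroblast genes (median 0.115), which are markers of the feeder cells that such lines can be grown on.

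Values are RPKM, reads per kilobase of bin, scaled to the total reads of the library. Depth, recovered from the smallest step between values, was 17.6, 34.9 and 27.2 M reads in 1000 cells a, b and c, against 13.4, 20.3 and 45.5 M reads in 10000, 100000 and 1000000 cells (M, 1000000 reads). A typical bin above 0 held between 9.91 reads (10000 cells) and 32.8 reads (1000000 cells). The mean over all tested bins was 0.424, 0.423 and 0.423 RPKM in 1000 cells a, b and c, and 0.421, 0.421 and 0.414 RPKM in 10000, 100000 and 1000000 cells. Chromosomes 1, 8 and 11 stood above the others in every library of the bin table, panH3 (histone H3 whatever its modification) included.

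The promoters of 4 genes are printed here as examples of start-site bins that stood far apart between the groups, with 1 direction taken per class of gene. A start-site bin lies within 1 kb of a transcription start, and a gene is called expressed where its RNA was at least 1 RPKM and silent below that. Med21 and Timm44 are the expressed genes with the lowest log2 difference, and Il17re and Slc7a10 the silent genes with the highest. They come from start-site bins with a mean of at least 0.2 RPKM, groups that do not overlap and 1 promoter in the table. They were chosen after their values were seen and do not show how often each direction occurred. Of the silent start-site bins without overlap, 96 were lower and 61 higher in the group of fewer cells. The bin of Cltc, an expressed gene not printed here, stood further apart (-1.06) than those of Il17re and Slc7a10. Sequences are from RefSeq (GRCm38.p6) and run 5′ to 3′ from upstream of the start to just past it, with each CG in capitals, the dinucleotide that is dense in promoters of many expressed genes. The Med21 promoter is chr6:146642329-146642628 (plus strand), that of Timm44 chr8:4275856-4276155 (minus), that of Il17re chr6:113458521-113458820 (plus) and that of Slc7a10 chr7:35186135-35186434 (plus).
Med21: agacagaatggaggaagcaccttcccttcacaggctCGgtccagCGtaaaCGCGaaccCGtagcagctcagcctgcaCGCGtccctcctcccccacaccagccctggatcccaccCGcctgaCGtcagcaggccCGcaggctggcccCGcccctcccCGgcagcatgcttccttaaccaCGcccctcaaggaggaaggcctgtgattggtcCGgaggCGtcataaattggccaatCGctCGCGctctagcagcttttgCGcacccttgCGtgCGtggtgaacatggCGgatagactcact
Timm44: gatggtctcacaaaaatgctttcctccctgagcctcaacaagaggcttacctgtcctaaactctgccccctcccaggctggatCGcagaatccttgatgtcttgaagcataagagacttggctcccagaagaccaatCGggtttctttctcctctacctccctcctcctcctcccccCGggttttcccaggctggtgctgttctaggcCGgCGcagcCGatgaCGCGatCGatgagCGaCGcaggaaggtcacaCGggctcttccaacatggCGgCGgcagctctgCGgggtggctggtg
Il17re: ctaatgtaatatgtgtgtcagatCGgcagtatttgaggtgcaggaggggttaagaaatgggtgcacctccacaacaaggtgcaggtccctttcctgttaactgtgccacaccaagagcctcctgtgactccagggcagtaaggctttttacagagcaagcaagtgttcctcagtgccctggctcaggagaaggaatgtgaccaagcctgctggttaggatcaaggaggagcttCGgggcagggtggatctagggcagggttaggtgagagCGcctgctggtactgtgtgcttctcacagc
Slc7a10: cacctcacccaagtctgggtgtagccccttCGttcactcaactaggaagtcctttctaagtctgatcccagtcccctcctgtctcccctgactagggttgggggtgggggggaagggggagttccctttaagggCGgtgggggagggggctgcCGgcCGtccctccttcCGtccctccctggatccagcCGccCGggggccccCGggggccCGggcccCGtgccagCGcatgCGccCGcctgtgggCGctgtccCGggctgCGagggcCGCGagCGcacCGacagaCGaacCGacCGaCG
These hold 22, 15, 3 and 24 CG for Med21, Timm44, Il17re and Slc7a10, against a median of 7 over the 32851 promoters of the table. The letters GGGCGG on either strand are in those of Med21 and Slc7a10 and in 35.7% of all promoters.

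The bin at the start of Med21, a Mediator subunit (chromosome 6, 146590001 to 146592000, mm9), had 0.20, 0.03 and 0.15 RPKM in 1000 cells a, b and c, against 0.26, 0.47 and 0.55 RPKM in 10000, 100000 and 1000000 cells. At Timm44, a part of the mitochondrial protein import motor (chromosome 8, 4274001 to 4276000), the values were 0.06, 0.10 and 0.11 RPKM in 1000 cells and 0.15, 0.44 and 0.40 RPKM in 10000, 100000 and 1000000 cells. In both bins every library of 1000 cells lay below every library of many cells, and the 10000-cell library was the nearest to them. At Il17re, an interleukin 17 receptor subunit (chromosome 6, 113406001 to 113408000), the bin had 0.31, 0.27 and 0.28 RPKM in 1000 cells and 0.07, 0.12 and 0.15 RPKM in 10000, 100000 and 1000000 cells. At Slc7a10, an amino acid transporter (chromosome 7, 35972001 to 35974000), it had 0.54, 0.70 and 0.66 RPKM in 1000 cells and 0.30, 0.37 and 0.32 RPKM in 10000, 100000 and 1000000 cells. The log2 differences, 1000 cells minus many cells, were -1.26 ± 0.31, -1.11 ± 0.32, 0.87 ± 0.30 and 0.77 ± 0.22 (SE) for Med21, Timm44, Il17re and Slc7a10, each with a limma adjusted p of 0.81.

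Expressed genes were where the mark most often stood lower in 1000 cells, mainly against 100000 and 1000000 cells. At their start sites (1601 bins) H3K9me3 averaged 0.165, 0.153 and 0.160 RPKM in 1000 cells a, b and c, against 0.168, 0.258 and 0.270 RPKM in 10000, 100000 and 1000000 cells. The groups do not overlap, but the 10000-cell library lies beside the libraries of 1000 cells and apart from the other two. The means were 0.159 ± 0.006 and 0.232 ± 0.056 RPKM (SD, n = 3 libraries each), a log2 ratio of -0.54. In the exact two-sided permutation test over the 6 libraries p was 0.1, the smallest that 3 against 3 allows, and 0.333 after adjustment over 5 kinds of bin. PanH3 in the same bins was 0.448 and 0.451 RPKM in its libraries of 1000 cells a and b.

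Single bins gave the same order. At expressed start sites 283 of 1601 bins (17.7%) were lower in every library of 1000 cells than in any of many cells, and 5 (0.312%) were higher. Over all tested bins the shares were 5.36% lower (5017 bins) and 4.99% higher (4671 bins). Silent start sites stood near those shares, with 96 of 1479 bins lower (6.49%) and 61 higher (4.12%), and means of 0.361 ± 0.006 and 0.363 ± 0.017 RPKM in 1000 and many cells (SD, n = 3 each). Without the 10000-cell library, a choice made after seeing the data, 885 expressed start-site bins (55.3%) were lower, and 12170 of the 93569 bins overall. Without the 1000000-cell library 324 (20.2%) were lower, against 10.7% of all bins.

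In other bins that touch an expressed gene (20332 bins) the means were 0.266, 0.265 and 0.269 RPKM in 1000 cells and 0.265, 0.288 and 0.332 RPKM in 10000, 100000 and 1000000 cells. Here the groups overlap through the 10000-cell library, and the exact permutation p was 0.3. Of these bins 10.96% were lower without overlap and 2.29% higher. Of the bins that touch no gene (57181) 3.39% were lower and 6.03% higher, against 5.36% and 4.99% over all tested bins. They had 0.490, 0.486 and 0.483 RPKM in 1000 cells and 0.485, 0.473 and 0.449 RPKM in 10000, 100000 and 1000000 cells. The groups overlap through the 10000-cell library. The exact permutation p was 0.2. Bodies of silent genes (12976 bins) averaged 0.431 ± 0.007 RPKM in 1000 cells and 0.418 ± 0.006 RPKM in many cells (SD, n = 3 each), also with p = 0.2 by exact permutation.

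**Figure D1:**
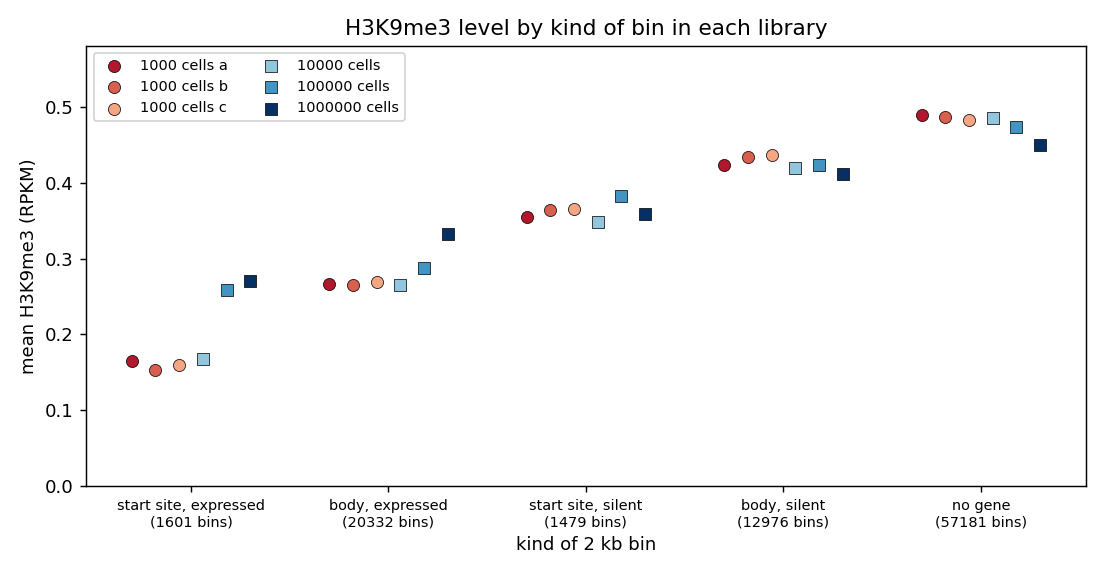
Mean H3K9me3 (RPKM, y axis) of the 5 kinds of 2 kb bin (x axis) in each library; each point is 1 library, circles for 1000 cells and squares for 10000, 100000 and 1000000 cells. At expressed start sites the libraries of 1000 cells sit between 0.153 and 0.165, beside the 10000-cell library (0.168) and below those of 100000 (0.258) and 1000000 cells (0.270).

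Within each library the depth of this dip can be read as a ratio that needs no scaling between libraries. The mean at expressed start sites divided by the mean of bins without a gene was 0.337, 0.315 and 0.331 in 1000 cells a, b and c. It was 0.345 in 10000 cells, 0.545 in 100000 cells and 0.601 in 1000000 cells. The same ratio for bodies of expressed genes was 0.544, 0.544 and 0.557 in 1000 cells and 0.546, 0.609 and 0.739 in 10000, 100000 and 1000000 cells. By both ratios the 3 libraries of 1000 cells and that of 10000 cells formed 1 cluster.

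Sorting bins that touch a gene by the gene's RNA gave a gradient that ended below the top class. The share of bins lower in 1000 cells was 3.56% for RNA of 0, 3.96% above 0 and below 1 RPKM, 8.16% for 1 to 5 RPKM, 12.6% for 5 to 20 RPKM, 16.3% for 20 to 50 RPKM and 12.2% for 50 RPKM and more. The share higher was 5.19% for RNA of 0 and 1.21% for 20 to 50 RPKM. In the class of 20 to 50 RPKM (2965 bins) the mean was 0.213, 0.203 and 0.208 RPKM in 1000 cells, against 0.217, 0.249 and 0.313 RPKM in 10000, 100000 and 1000000 cells. Bins of genes at 50 RPKM and more carried more of the mark in every library than those at 20 to 50 RPKM, with 0.305 ± 0.009 RPKM in 1000 cells and 0.338 ± 0.028 RPKM in many cells (SD, n = 3 each).

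**Figure D2:**
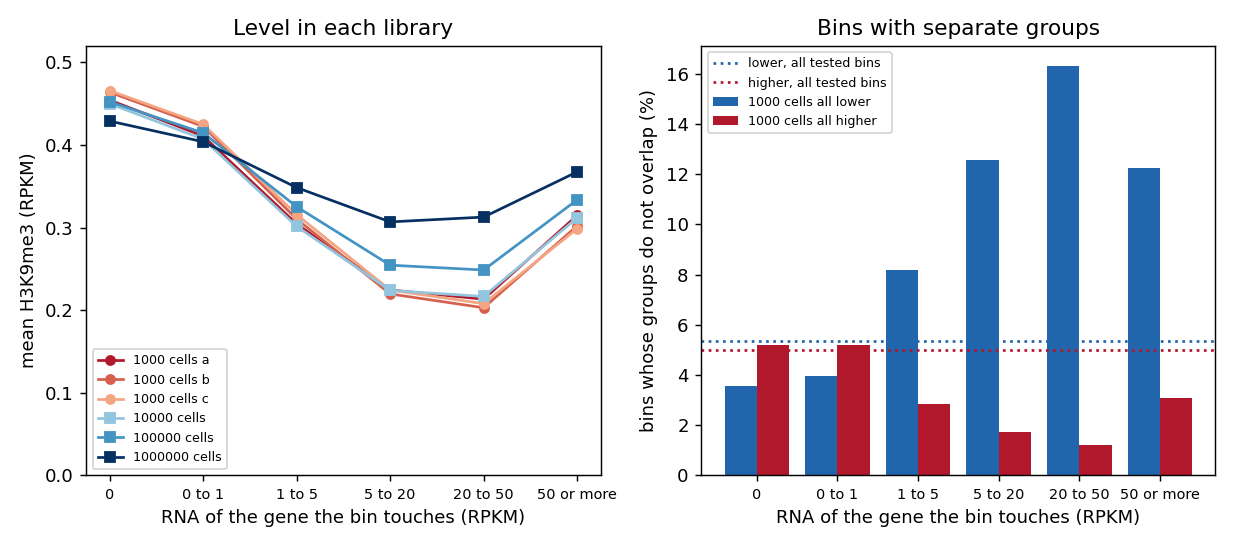
Left, mean H3K9me3 (RPKM) of bins that touch a gene by the RNA of that gene (RPKM), 1 line per library. Right, percent of bins in which all 3 libraries of 1000 cells are lower (blue) or higher (red) than all 3 of many cells, with dotted lines for all tested bins; the lower share peaks at 16.3% for RNA of 20 to 50 RPKM.

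Start sites that carry H3K4me3, the mark of active promoters, were ordered the same way. The comparison used the H3K4me3 library of 100000 cells, read in windows of 1 kb. Where H3K4me3 was under 1 RPKM (2696 bins), H3K9me3 averaged 0.293, 0.299 and 0.305 RPKM in 1000 cells and 0.289, 0.316 and 0.344 RPKM in 10000, 100000 and 1000000 cells. Where H3K4me3 was 5 to 15 RPKM (564 bins), it averaged 0.121, 0.108 and 0.117 RPKM in 1000 cells and 0.112, 0.251 and 0.240 RPKM in 10000, 100000 and 1000000 cells. In that class 92 bins (16.3%) were lower without overlap and 0 were higher, against 10.1% lower and 3.45% higher below 1 RPKM. The log2 ratio of the means was -0.08 below 1 RPKM and -0.80 at 5 to 15 RPKM. In both classes the groups overlap through the 10000-cell library.

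The mean at expressed start sites was lower in 1000 cells than in many cells in each of 4 classes of CG content, but the groups overlap through the 10000-cell library in all of them except that of 6 to 16 CG. A promoter in the RefSeq table was matched by symbol to 1288 of the 1601 expressed start-site bins. By CG count the log2 ratio of 1000 to many cells was -0.36 for under 6 (84 bins), -0.46 for 6 to 16 (313 bins), -0.60 for 16 to 26 (456 bins) and -0.65 for 26 and more (435 bins). The share of bins lower without overlap was 14.3%, 19.2%, 17.8% and 16.6% in these classes, so it did not follow the ratio. Of the silent start-site bins 1068 of 1479 were matched, under the 80% needed, and no split is given for them.

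As a ratio, the bins with the least mark differed most, while in RPKM the bins with the most did. Classes here come from the mean over the same 6 libraries and the values are a description only. In the 18022 bins with a mean under 0.2 RPKM the level was 0.115, 0.112 and 0.115 RPKM in 1000 cells, against 0.113, 0.147 and 0.197 RPKM in 10000, 100000 and 1000000 cells. In the 240 bins above 2 RPKM it was 2.52, 2.42 and 2.40 RPKM in 1000 cells, against 2.60, 2.30 and 2.06 RPKM in 10000, 100000 and 1000000 cells. The 1000000-cell library was thus the highest in weakly marked bins and the lowest in strongly marked ones, where the 10000-cell library was the highest. The level at 1.5 to 2 RPKM over that below 0.2 RPKM was 15.7, 15.1 and 14.8 in 1000 cells, and 16.5, 11.1 and 7.27 in 10000, 100000 and 1000000 cells.

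**Figure D3:**
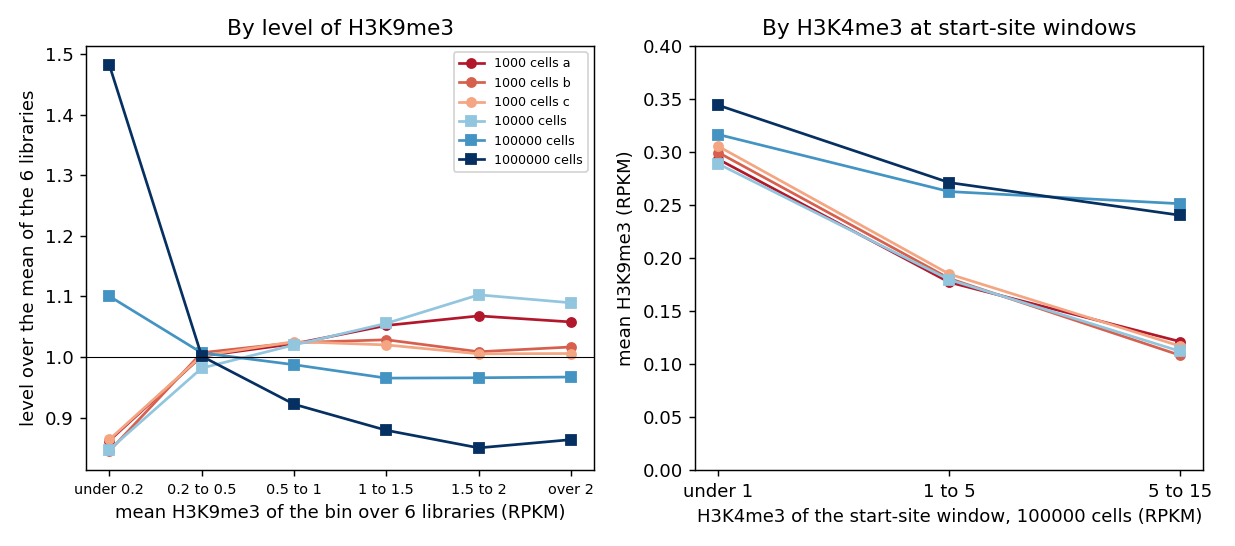
Left, H3K9me3 of each library divided by the mean of the 6 libraries (y axis), by the mean level of the bin (RPKM, x axis). Right, mean H3K9me3 (RPKM) by the H3K4me3 (RPKM, 100000 cells) of the start-site window; circles are 1000 cells and squares 10000, 100000 and 1000000 cells, and at 5 to 15 RPKM of H3K4me3 the libraries of 1000 cells lie between 0.108 and 0.121.

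No single bin passed the test between the groups. Limma on log2(RPKM + 0.1), with Benjamini-Hochberg adjustment over 93569 bins and a threshold of 0.05, called 0 higher and 0 lower, where 2424 were higher and 3170 lower at an unadjusted p under 0.05. With voom weights on the recovered reads limma called 1 higher and 0 lower, and so did the limma slope on the cell number (0.00107% higher). Without the 10000-cell library limma called 1 higher and 20 lower. Missing calls are no sign of equal profiles. A typical bin rests on few reads and the libraries of many cells differ in cell number, and the part of either was not tested.

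Among bins with a mean of at least 0.2 RPKM and groups that do not overlap, the highest difference lay in Frem3, an extracellular matrix gene (chromosome 8, 83164001 to 83166000, mm9), with 0.71, 1.42 and 1.44 RPKM in 1000 cells and 0.63, 0.17 and 0.18 RPKM in 10000, 100000 and 1000000 cells (log2 1.70 ± 0.34 SE, limma adjusted p = 0.81). Other bins with a high difference lay in Abhd2, with 0.51, 0.60 and 0.66 RPKM in 1000 cells and 0.11, 0.20 and 0.44 RPKM in 10000, 100000 and 1000000 cells, and in the kinase gene Mast4. Intergenic ones lay near Gp5, a platelet glycoprotein gene, the major urinary protein gene Mup8 and the vomeronasal receptor gene Vmn1r209. The lowest lay in Ptp4a1, a phosphatase gene that overlaps Gm13363 (chromosome 1, 31000001 to 31002000), with 0.09, 0.11 and 0.07 RPKM in 1000 cells and 0.30, 0.39 and 0.67 RPKM in 10000, 100000 and 1000000 cells (log2 -1.49 ± 0.29 SE). Next were a bin 454 bases from Laptm4a (-1.35) and bins in Wnk1, a kinase that controls ion transport (-1.31), Trim41 (-1.30) and the start of the kinase gene Mapk7 (-1.29). Of the 8 lowest bins 7 touch an expressed gene, and the other is the bin beside Laptm4a.

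Neighbouring bins bear on whether such a bin is part of a wider difference. Of the 2771 bins lower without overlap and of at least 0.2 RPKM, 2144 had another tested bin within 20 kb, and that neighbour was also lower in 54.1%, against 49.5% over all tested bins. For the 4376 bins that were higher, the neighbour was also higher in 61.1%, against 50.5% over all. Those shares over all were taken without the minimum of 0.2 RPKM. Bins that meet it had a median log2 difference of 0.034, against 0.002 over all, so the baselines are not matched. The median log2 difference of the neighbours was -0.03 beside lower bins and 0.07 beside higher ones. Beside the 8 lowest bins, 8 of 9 tested neighbours were also lower, with medians of -0.35 at Wnk1, -0.37 at Sertad2, -0.42 at Med21 and -0.74 at Ppp2ca, the exception being the 1 neighbour of Mapk7 (0.28). Beside the 8 highest bins it was 5 of 11.

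Averaging over genes gave steadier values. A gene was fitted where at least 3 tested bins overlap it, which left 3927 genes. Limma between the groups called 0 higher and 0 lower (64 and 337 at an unadjusted p under 0.05), while 490 genes (12.5%) were lower and 161 (4.1%) higher without overlap. Without the 10000-cell library limma called 134 lower (3.41%) and 1 higher (0.0255%).

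The slope on log10 of the cell number used the whole ladder, and its sign is turned here so that a positive value is higher in fewer cells. It called 459 genes lower (11.7%) and 5 higher (0.127%) with limma at an adjusted p under 0.05. Of the 134 genes called lower without the 10000-cell library, 128 (95.5%) were also among the 459, of which they are 27.9%. Both fits use the same libraries apart from that of 10000 cells, so a large overlap was likely in advance and is no separate evidence. The slope calls rest on the library with the most cells, since 0 genes were called in either direction without it, where 60 were higher and 324 lower at an unadjusted p under 0.05. Quantile normalization left 2 genes lower and 0 higher. Centring each library on its median left 108 lower and 5 higher, and the lower calls numbered 42 without 1000 cells b, 125 without 1000 cells c and 45 without 100000 cells, with 0 higher in each.

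The genes lower in fewer cells were nearly all expressed. Of the 459 lower genes, 442 had RNA of at least 1 RPKM, which is 17.5% of the 2524 expressed genes fitted, and 17 were silent, which is 1.21% of 1403. The share called lower was 6.77% at 1 to 5 RPKM, 20.1% at 5 to 20 RPKM, 33.4% at 20 to 50 RPKM (125 of 374 genes) and 20.8% at 50 RPKM and more. The group comparison, which made no call, had the same order, with a median log2 difference of -0.16 in expressed and 0.04 in silent genes. Silent genes were higher without overlap in 7.70% and lower in 3.42%.

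The lowest gene was Hspa4, a chaperone of the Hsp110 family (chromosome 11, 53073317 to 53113980, mm9, 3 bins). Hspa4 had 0.097, 0.053 and 0.063 RPKM in 1000 cells, against 0.123, 0.297 and 0.407 RPKM in 10000, 100000 and 1000000 cells. Every library of 1000 cells lay below every library of many cells, with a log2 difference of -1.06 ± 0.27 (SE, limma adjusted p = 0.35 between groups) and a slope of -0.55 with a limma adjusted p of 0.014. Ppp2ca, the catalytic subunit of protein phosphatase 2A, had 0.133, 0.120 and 0.080 RPKM in 1000 cells and 0.250, 0.273 and 0.357 RPKM in 10000, 100000 and 1000000 cells (-0.90 ± 0.18). Cdh1, the adhesion protein E-cadherin of the stem cell epithelium, had 0.090, 0.103 and 0.120 RPKM in 1000 cells and 0.223, 0.240 and 0.370 RPKM in 10000, 100000 and 1000000 cells (-0.87 ± 0.19). In these 2 genes the 10000-cell library lay with the larger inputs and not beside 1000 cells.

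The other genes of lowest difference were Rbm26, an RNA-binding protein (-0.98), Wrap53, a telomerase cofactor divergent from Trp53 (-0.94), Gtf3c4, a subunit of transcription factor IIIC (-0.92), the exonuclease family gene Eri3 (-0.92), the lipid kinase Pi4kb (-0.91), the Mediator subunit Med13 (-0.88) and the prefoldin subunit Pfdn1 (-0.86). All 10 passed the slope test, with limma adjusted p between 0.014 and 0.024, and 9 had RNA between 6.93 and 83.8 RPKM. The tenth, Pi4kb, was listed at 0.07 RPKM. Genes that overlap share bins, and each of these values rests on 3 or 4 bins.

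At the other end, Xirp2, an actin-binding protein of muscle, had 0.427, 0.510 and 0.543 RPKM in 1000 cells and 0.287, 0.330 and 0.373 RPKM in 10000, 100000 and 1000000 cells (log2 0.46 ± 0.11 SE). Clec4a4, a C-type lectin of myeloid cells, had 1.33, 1.40 and 1.46 RPKM in 1000 cells and 1.15, 0.993 and 1.11 RPKM in 10000, 100000 and 1000000 cells (0.34 ± 0.10). Both were above many cells in every library of 1000 cells but passed neither test (limma adjusted p = 0.35 between groups for each). The 5 genes that rose toward fewer cells by the slope were Frem3, Serpina3g, a serine protease inhibitor, Il20ra, a cytokine receptor subunit, the vomeronasal receptor gene Vmn2r29 and Scn1a, a neuronal sodium channel, of which Il20ra, Vmn2r29 and Scn1a are named after their values were seen. Serpina3g had 0.787, 0.793 and 0.747 RPKM in 1000 cells and 0.623, 0.65 and 0.5 RPKM in 10000, 100000 and 1000000 cells (slope 0.16, limma adjusted p = 0.029). Other high genes of the group comparison were AI314831 (0.40), Abca14 (0.38), Ikbip (0.36), Cpz (0.35), Slc13a3 (0.34) and Elfn1 (0.33), and of the 10 highest only Ikbip had RNA of at least 1 RPKM.

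**Figure D4:**
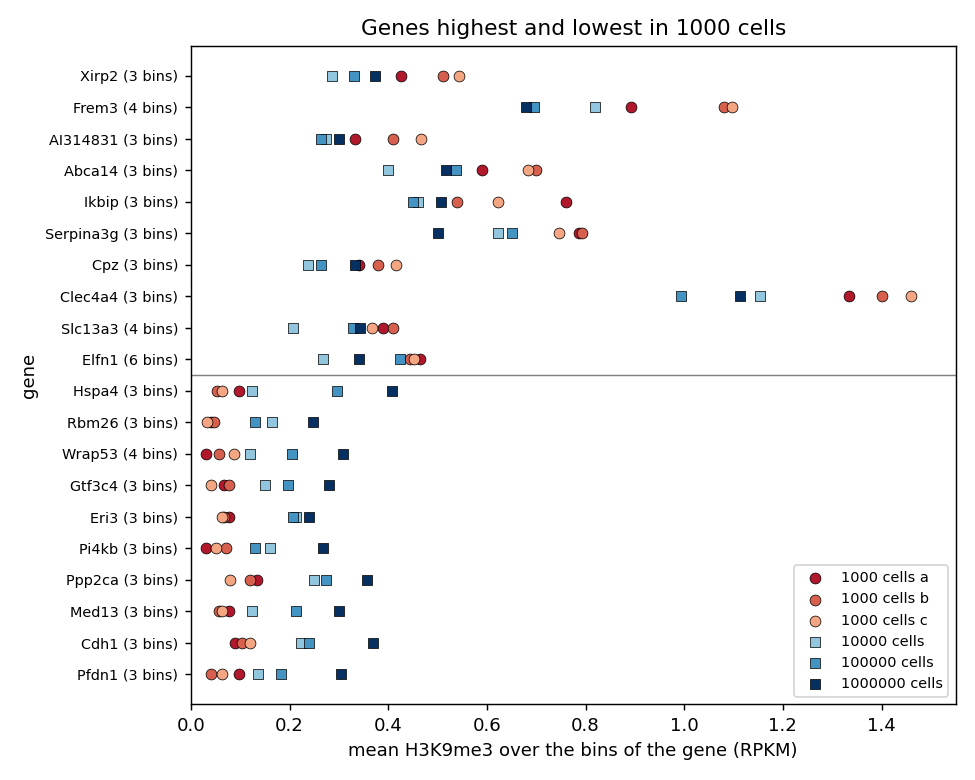
Mean H3K9me3 over the bins of each gene (RPKM, x axis) for the 10 genes with the highest and the 10 with the lowest log2 difference among genes whose groups do not overlap (y axis); circles are the 3 libraries of 1000 cells and squares those of 10000, 100000 and 1000000 cells. In Hspa4 the circles lie between 0.053 and 0.097 and the squares between 0.123 and 0.407, and in Clec4a4 the circles lie between 1.33 and 1.46 and the squares between 0.993 and 1.15.

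Gene groups are described by their counts beside the shares over all bins, 5.36% lower and 4.99% higher. Genes of the H3K9 methylation machinery held 51 bins, of which 8 (15.7%) were lower without overlap and 0 higher, with 0.166 ± 0.008 RPKM in 1000 cells and 0.219 ± 0.057 RPKM in many cells (SD, n = 3 each). Of 7 such genes fitted, 2 fell by the slope, against 17.5% of expressed and 11.7% of all fitted genes. These were Dnmt1, the maintenance DNA methyltransferase, with 0.067, 0.060 and 0.093 RPKM in 1000 cells and 0.097, 0.130 and 0.307 RPKM in 10000, 100000 and 1000000 cells, and Ehmt1, which dimethylates H3K9 (slopes -0.36 and -0.28). At the bin in Suv39h2, a trimethylase of H3K9, the values were 0.11, 0.07 and 0.11 RPKM in 1000 cells and 0.15, 0.27 and 0.32 RPKM in 10000, 100000 and 1000000 cells. Atf7ip, a partner of SETDB1, was marked more strongly, at 1.06, 0.883 and 0.757 RPKM in 1000 cells and 0.707, 0.700 and 0.830 RPKM in 10000, 100000 and 1000000 cells, with groups that overlap.

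Zfp zinc finger genes, many of which lie in clusters bound by HP1 and rich in H3K9me3, held 393 bins, with 46 lower (11.7%) and 9 higher (2.29%). Their mean was 0.304 ± 0.006 RPKM in 1000 cells and 0.343 ± 0.017 RPKM in many cells (SD, n = 3 each). As a set these bins were not rich in the mark, since the means over all tested bins were 0.423 and 0.419 RPKM. Of 32 fitted, 5 fell by the slope, against 17.5% of expressed and 11.7% of all fitted genes. The 5 were Zfp64, Zfp148, Zfp346, Zfp462 and Zfp568, all with RNA of at least 8.07 RPKM. Zfp57, which guards imprints, was low, with 0.14, 0.10 and 0.07 RPKM in 1000 cells and 0.26, 0.27 and 0.36 RPKM in 10000, 100000 and 1000000 cells. Zfp600 was strongly marked and stood at 1.54, 1.14 and 1.38 RPKM in 1000 cells and 0.90, 0.79 and 1.03 RPKM in 10000, 100000 and 1000000 cells, both from 1 bin. Zfp600 belongs to a cluster of near-identical genes, as do vomeronasal, olfactory, Cyp3a and Mup genes, and how reads were shared among copies is not stated, so their levels are uncertain.

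Housekeeping genes held 8 bins, with 4 lower and 0 higher. At Hprt, of purine salvage, the bin had 0.03, 0.01 and 0.09 RPKM in 1000 cells and 0.19, 0.15 and 0.20 RPKM in 10000, 100000 and 1000000 cells. Pluripotency genes held 7 bins, with 2 lower and 0 higher. At Lin28a, which blocks let-7 maturation, the bin had 0.06, 0.04 and 0.04 RPKM in 1000 cells and 0.19, 0.10 and 0.18 RPKM in 10000, 100000 and 1000000 cells, whereas in Esrrb, a pluripotency factor (4 bins), the groups overlapped, with means of 0.348 RPKM in 1000 cells and 0.326 RPKM in many cells. Fibroblast genes held 24 bins with 4 lower and 2 higher, among the lower ones that of Fn1, fibronectin, which these cells express (38.5 RPKM).

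Most families of tissue-specific genes stood near the shares of all bins. Vomeronasal receptor genes had 5 of 162 bins lower and 6 higher, olfactory receptor genes 5 of 132 and 7, protocadherin genes 5 of 172 and 9, genes with Kcn symbols, mostly potassium channels, 12 of 357 and 16, and cytochrome P450 genes 6 of 97 and 4. Genes whose symbols start like those of collagens had 12 of 185 lower and 11 higher, among them Col4a3bp, an expressed ceramide transfer protein that is no collagen. Serpin genes had 2 of 38 lower and 4 higher, with 0.516 ± 0.018 RPKM in 1000 cells and 0.468 ± 0.016 RPKM in many cells (SD, n = 3 each). Imprinted genes had 9 of 105 lower and 6 higher, germline genes 5 of 53 and 0, keratin genes 1 of 31 and 2, Skint and Btn genes 1 of 57 and 3 and Y-linked genes 2 of 20 and 1. Genes with Rpl or Rps symbols, which name ribosomal proteins but also S6 kinases such as Rps6ka3 and Rps6ka5, stood apart from these with 8 of 50 bins lower (16%) and 0 higher. HOX genes had 1 of 5 lower and clustered histone genes 1 of 7, both with 0 higher. Rhox genes (13 bins) and Scgb and Klk genes (10 bins) had no single bin with groups apart. Averaged over their bins, Rhox genes had 0.182 RPKM in 1000 cells and 0.152 RPKM in many cells, with groups that do not overlap. Genes of the 2-cell-like state, held under H3K9me3 in stem cells, had 5 bins with no group apart and 0.798, 0.752 and 0.906 RPKM in 1000 cells against 0.756, 0.640 and 0.702 RPKM in 10000, 100000 and 1000000 cells.

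Broad regions were tested as fixed windows of 1 Mb with at least 10 tested bins, 2573 in all. Between the groups limma called 0 higher and 0 lower (88 and 110 at an unadjusted p under 0.05), while 210 windows (8.16%) were higher and 124 (4.82%) lower without overlap. The slope called 122 windows lower (4.74%) and 21 higher (0.816%) in fewer cells, again with 0 of either without the 1000000-cell library (73 higher and 136 lower at an unadjusted p under 0.05). Without 1000 cells c it called 173 lower and 117 higher, without 1000 cells b 72 lower and 3 higher, without 1000 cells a 91 lower and 5 higher, and without 100000 cells 44 lower and 2 higher. Without the 10000-cell library the groups themselves gave 89 windows lower (3.46%) and 4 higher (0.155%).

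Windows that were lower in fewer cells were those dense in expressed genes. In the 122 lower windows a median of 55.2% of the bins touched an expressed gene, with a range of 28.6% to 86.1%, in the 21 higher windows a median of 0%, and over all windows 17.9%. Across the 2573 windows Pearson's r between the log2 difference and that percentage was -0.52 (Spearman's rho -0.52), as a description, since the windows share the same 6 libraries. Of 388 windows with at least 50% of such bins, 80 (20.6%) were lower by the slope and 0 higher, and of 674 windows with none, 0 were lower and 16 higher.

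**Figure D5:**
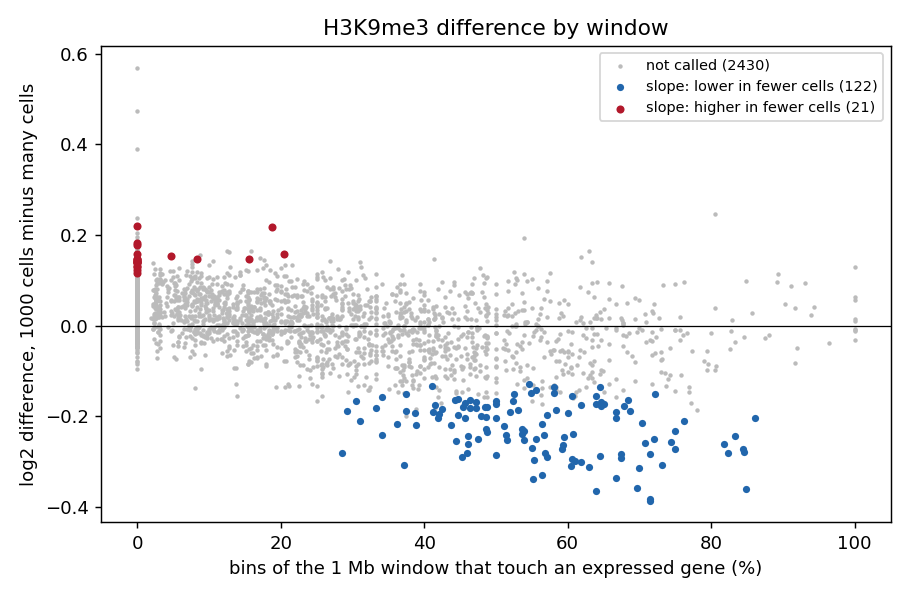
Log2 difference in H3K9me3, 1000 cells minus many cells (y axis), of each 1 Mb window by the percent of its bins that touch an expressed gene (x axis); blue points are the 122 windows called lower in fewer cells by the slope and red points the 21 called higher. The blue points start at 28.6% and the red ones end at 20.5%.

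Among windows whose groups do not overlap, the lowest, on chromosome 11 from 4000001 to 5000000 (mm9), holds Lif, the cytokine that keeps mouse stem cells undifferentiated, its relative Osm, the RNA-binding gene Ewsr1 and the tumour suppressor Nf2, and 18 of its 25 genes are expressed. It had 0.216, 0.221 and 0.218 RPKM in 1000 cells and 0.226, 0.324 and 0.421 RPKM in 10000, 100000 and 1000000 cells (log2 -0.39 ± 0.13 SE, slope -0.23, limma adjusted p of the slope 0.00116). In this window 8 of 35 bins were lower and 0 higher. Others among the lowest, on chromosome 4 from 132000001 (Rpa2 and Ppp1r8), chromosome 15 from 99000001 (Smarcd1 and Racgap1), chromosome 10 from 79000001 (Gpx4 and Mbd3 among 61 genes) and chromosome 16 from 32000001 (Tfrc and Pak2), had log2 differences between -0.34 and -0.31.

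The highest window, on chromosome 5 from 146000001 to 147000000, covers the Cyp3a cluster of liver drug-metabolizing enzymes. It had 0.942, 1.02 and 0.956 RPKM in 1000 cells and 0.841, 0.829 and 0.794 RPKM in 10000, 100000 and 1000000 cells (log2 0.22 ± 0.05 SE, limma adjusted p of the slope 0.019). A window without a gene in the table, on chromosome 7 from 33000001, had 0.656, 0.649 and 0.648 RPKM in 1000 cells and 0.621, 0.546 and 0.530 RPKM in 10000, 100000 and 1000000 cells (0.18 ± 0.06). The window of the serotonin receptor gene Htr1b and of Mei4, a meiotic gene, on chromosome 9 from 81000001 had 0.386, 0.359 and 0.337 RPKM in 1000 cells and 0.303, 0.320 and 0.267 RPKM in 10000, 100000 and 1000000 cells (0.22 ± 0.07). In all 3 windows the libraries of 1000 cells lay above those of many cells, and all 3 passed the slope test. Windows at Tmem132c (0.17) and Bmp2, a growth factor (0.17), did not. Among the other windows called higher by the slope, named after their values were seen, were that of the major urinary protein genes on chromosome 4 from 60000001 and that of olfactory receptor genes beside Hbb-y on chromosome 7 from 111000001.

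Bins without a gene were also ordered by their distance from the nearest one. Under 10 kb (8776 bins) the mean was 0.425 RPKM in 1000 cells and 0.429 RPKM in many cells, with groups that overlap. At 10 to 50 kb (13940 bins) the values were 0.492, 0.4998 and 0.501 RPKM in 1000 cells and 0.489, 0.486 and 0.469 RPKM in 10000, 100000 and 1000000 cells. At 50 to 200 kb (16204 bins) they were 0.508, 0.513 and 0.513 RPKM in 1000 cells and 0.503, 0.489 and 0.474 RPKM in 10000, 100000 and 1000000 cells. In these classes, 10 to 50 kb and 50 to 200 kb, every library of 1000 cells lay above every library of many cells. The same held over all tested bins, with 0.423 to 0.424 RPKM in 1000 cells and 0.414 to 0.421 RPKM in many cells, so it is not particular to these classes. Bins at least 500 kb from any gene (8064) had 0.488, 0.459 and 0.442 RPKM in 1000 cells a, b and c and 0.482, 0.450 and 0.397 RPKM in 10000, 100000 and 1000000 cells. There the groups overlap, and the shallowest library of each group was its highest, with 17.6 M reads in 1000 cells a and 13.4 M in 10000 cells. The part of depth in this was not tested. Over whole chromosomes the groups were close, with log2 ratios between -0.04 on chromosome 19 and 0.06 on the Y chromosome, and the share of bins lower without overlap was highest on chromosome 11 (8.30%) and lowest on the X chromosome (3.86%).

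H3K27me3, the Polycomb mark, has 1 library per cell number in the same bins and no replicate check. At expressed start sites H3K27me3 was 0.362 RPKM in 1000 cells, 0.436 RPKM in 10000 cells and 0.414 RPKM in 100000 cells. It was lowest at 1000 cells and highest at 10000 cells, whereas H3K9me3 at 10000 cells lay beside 1000 cells. In other bins of expressed genes H3K27me3 was 0.320 RPKM in 1000 cells, 0.284 RPKM in 10000 cells and 0.279 RPKM in 100000 cells, highest at 1000 cells. At HOX genes, the main Polycomb targets (5 bins), it was 1.97 RPKM in 1000 cells, 3.65 RPKM in 10000 cells and 3.62 RPKM in 100000 cells. H3K9me3 at the same 5 bins was 0.400, 0.308 and 0.292 RPKM in 1000 cells and 0.406, 0.454 and 0.338 RPKM in 10000, 100000 and 1000000 cells. Among 5 equal classes by panH3, H3K9me3 was lower without overlap in 3.10% and higher in 6.46% of the class with the least panH3, and lower in 8.21% and higher in 3.96% of the class with the most.

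With voom weights on the recovered reads, a fit added after seeing the data, the slope also made calls in single bins. It called 1771 bins lower (1.89%) and 102 higher (0.109%) in fewer cells. Of the lower bins 247 were expressed start sites, which is 15.4% of these, and 1264 lay in other bins touching an expressed gene (6.22%), while bins without a gene gave 183 (0.32%). Of the higher bins 78 touched no gene and 0 were expressed start sites. The count of lower bins was 27 without the 1000000-cell library, 450 without 1000 cells a, 1 without 1000 cells b and 3 without 1000 cells c.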

How the data were processed

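Per the file headers the authors deposited RPKM values, each library in its own column, in 2 kb bins for H3K9me3, H3K27me3 and panH3 (whose header gives no unit), in 1 kb start-site windows for H3K4me3, and over exons for RNA. BWA, SAMtools and mm9 are named in the submitters' processing notes. How reads were counted and filtered, and any tool version, is not given in the sources used here. No bin exceeds 5 RPKM, so stronger bins are not analysed here. Left out were 2 start-site columns that belong to another series.

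Groups were taken from the labels. Tests used limma 3.58.1 in R 4.3.3 (intensity trend, robust, two-sided) on log2(RPKM + 0.1), without further scaling, for bins, for means over 1 Mb windows with at least 10 tested bins and for means over genes with at least 3. Fold changes on this scale understate the change of low bins. Whole reads per bin were recovered from the step of each library. Expressed means RNA of at least 1 RPKM, and start-site bins lie within 1 kb of a start. Gene spans come from the deposited gene table. The test was checked on simulated data. Named bins, windows and genes are those with the most extreme log2 differences among items whose groups do not overlap (bins of at least 0.2 RPKM), and from each list the most extreme members, not all of which are reported here. Promoters to print were not taken from chromosome 18. The comparison, its members and its gene lists were chosen with earlier results of these data known. Alternatives comprised pseudocounts, scaling, filters, thinning, voom and leaving out libraries. Summaries and figures used pandas 2.3.3 and numpy 2.4.6 in Python 3.11.15, with matplotlib 3.10.9, and exact tests scipy 1.17.1.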

Additional observations from a re-analysis of the deposited data

How the results depend on the processing

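No paired analysis was possible because the libraries of many cells are 1 each of a different cell number and share no replicate numbers with those of 1000 cells. Between groups, the counts called were 0 in both directions under a pseudocount of 1, both scalings, a minimum of 0.2 RPKM, all bins of the table, plain moderation, other window or gene sizes and the removal of chromosomes 1, 8 and 11. Exceptions were 1 higher bin each with the slope, with thinned reads and with voom, and the slope calls of 21 higher and 122 lower windows and 5 higher and 459 lower genes. Leaving out 1 library at a time gave 0 to 1 bins higher and 0 to 20 lower, 0 to 4 windows higher and 0 to 89 lower, and 0 to 1 genes higher and 0 to 134 lower.

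The slope tests moved more, under alternatives chosen after seeing the data, and the cause was not tested. For genes the lower calls were 108 with centring, 2 with quantile normalization and 185 with thinned reads, and the higher calls 0 with quantile normalization and 3 with thinned reads. For windows the higher calls were 9 with centring and 11 with quantile normalization, where the lower calls were 70. For bins the lower calls were 99 with a pseudocount of 1, 1 with quantile normalization and 1771 with voom, and the higher calls 2 with thinned reads and 102 with voom. Leaving out 1 library gave 0 to 653 genes lower and 0 to 11 higher, 0 to 185 windows lower and 0 to 117 higher, 0 to 10 bins lower, and with voom 1 to 2321 bins lower and 0 to 161 higher.

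The log2 ratio at expressed start sites was -0.0877 with a pseudocount of 1, and that of silent bodies 0.0132; leaving out 1 library gave -0.73 to -0.42 at expressed start sites and -0.22 to -0.05 in expressed bodies. Bins without overlap then numbered 324 to 885 lower and 10 to 36 higher at expressed start sites, 2831 to 5671 lower and 862 to 1628 higher in expressed bodies, and 3651 to 5519 lower and 5951 to 7206 higher without a gene; fewer libraries overlap less often by construction. No bin, window or gene picked as most extreme among those whose groups do not overlap changed direction under any alternative run. For the pseudocount and for leaving out 1 library this was fixed in advance, since such groups stay apart. Items named on other grounds, such as list members not picked this way, were not put through these runs. Reads thinned to equal depth gave 2302 bins higher and 3180 lower at an unadjusted p under 0.05, against 2424 and 3170 as deposited. With 3 libraries a group no exact test can go below 0.1.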
